A study of Mus musculus with 8 samples.

Results

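Oxidative phosphorylation (OXPHOS) genes were examined in bone marrow-derived macrophages (BMDMs), the macrophages that bone marrow cells give rise to in medium with macrophage colony-stimulating factor (M-CSF). Genes were chosen by symbol alone: those that start with Nduf, Uqcr, Atp5 or Cox4 to Cox8, the genes Sdha, Sdhb, Sdhc and Sdhd, and the protein-coding genes of the mitochondrial genome. The rule took 111 of the 54532 genes in the count table, 98 in the nuclear genome and 13 in the mitochondrial genome. Another 9 genes with -ps in the symbol were left out. RNA was sequenced from 4 WT and 4 Gsdmd-/- libraries, each of untreated BMDMs after 6 days in M-CSF. The WT mice were female C57BL/6J mice aged 6 to 8 weeks that were bought from a supplier. The Gsdmd-/- mice lacked gasdermin D, the pore-forming protein that executes pyroptosis, in the whole body. They were a gift and were kept in a university animal facility, and whether the WT mice were housed there is not stated. Genotype and source of the mice therefore cannot be told apart. The age given for BMDM donors is the same, but is not stated for the Gsdmd-/- mice by themselves. The sources do not tie the libraries to individual mice, so p-values measure only the spread between these libraries, which may be technical.

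OXPHOS couples the oxidation of NADH and succinate to the synthesis of ATP at the mitochondrial inner membrane. Complexes I to IV pass electrons to oxygen and, except for complex II, pump protons, and complex V (ATP synthase) uses the proton gradient to make ATP. Most subunits are encoded in the nucleus and imported, whereas a small set of core subunits of complexes I, III, IV and V is encoded in the mitochondrial genome, which is transcribed by its own polymerase. In macrophages the balance of OXPHOS and glycolysis is known to shift with activation.

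The promoters of nuclear OXPHOS genes are known for motifs of the factors NRF1 and NRF2 (GABP, an ETS factor) and YY1, so the sequences of the genes were searched for them on both strands. A promoter of 300 bases, from 250 before to 50 after the start site, was found in RefSeq (GRCm38.p6) for 76 of the 98 nuclear genes. The NRF1 motif (GCGCA, any base, then GCGC) was present in 25.0% of these 76 genes and in 5.19% of all 27025 genes with a promoter. The ETS motif CCGGAAG was present in 23.7% and 9.93%, and the YY1 motif AAGATGGC in 14.5% and 3.19%, respectively. Matches of different motifs may overlap, and at least 1 of the 3 was present in 53.9% of the nuclear OXPHOS genes and in 16.4% of all genes. None was found in the 4 tissue-restricted isoform genes that had a promoter in the table. Atp5b, the nuclear OXPHOS gene with the most counts, and Cox7a2 held no match of the 3 motifs. The examples were chosen after the matches were seen, to show repeated NRF1 matches, and are 3 of the 4 genes with at least 2 of them (the other is Ndufb4). Matches on either strand are in capitals. They are Sdha (chr13:74350191-74350490, minus strand, 3 NRF1 matches), Uqcrc1 (chr9:108936398-108936697, plus strand, 2 NRF1 matches) and Cox6a1 (chr5:115348909-115349208, minus strand, 2 NRF1 matches and 1 ETS match).
Sdha: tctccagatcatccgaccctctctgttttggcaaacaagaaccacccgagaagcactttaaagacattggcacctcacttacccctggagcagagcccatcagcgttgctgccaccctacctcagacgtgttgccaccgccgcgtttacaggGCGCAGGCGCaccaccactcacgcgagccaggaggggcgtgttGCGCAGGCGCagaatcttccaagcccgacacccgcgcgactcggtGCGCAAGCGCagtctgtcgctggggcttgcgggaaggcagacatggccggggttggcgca
Uqcrc1: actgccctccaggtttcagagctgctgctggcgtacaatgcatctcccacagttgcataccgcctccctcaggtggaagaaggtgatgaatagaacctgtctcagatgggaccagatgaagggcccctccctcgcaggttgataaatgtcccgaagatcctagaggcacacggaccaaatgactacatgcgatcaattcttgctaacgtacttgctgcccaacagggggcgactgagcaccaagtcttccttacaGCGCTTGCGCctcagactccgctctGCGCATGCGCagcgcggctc
Cox6a1: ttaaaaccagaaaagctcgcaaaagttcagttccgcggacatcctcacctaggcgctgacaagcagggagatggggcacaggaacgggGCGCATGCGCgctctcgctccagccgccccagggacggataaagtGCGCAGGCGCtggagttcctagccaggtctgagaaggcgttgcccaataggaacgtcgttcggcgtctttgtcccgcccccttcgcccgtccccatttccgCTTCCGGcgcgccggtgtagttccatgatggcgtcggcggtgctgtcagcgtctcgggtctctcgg

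Several mitochondrial genes have near-identical copies in the nuclear genome, which matters for how their reads can be counted. A set of 7 copies, of mt-Co1, mt-Co2, mt-Atp6, mt-Co3, mt-Nd3, mt-Nd4l and mt-Nd4, lies together on the minus strand of chromosome 1 (GRCm38, 24611535 to 24616197), and these are annotated in GENCODE M21 as unprocessed pseudogenes. Further copies lie on the minus strand of chromosome 2 (22587291 to 22590533), namely Gm13340 of mt-Co1 with 27.5% of the 50-base windows of the gene, Gm13341 of mt-Co2 with 35.3% and Gm13339 of mt-Nd2 with 8.19%. On chromosome 1, the copy of mt-Co3, Gm28437, had no difference over 783 bases, and the copy of mt-Co2, Gm28661, none over 681 bases. The copy of mt-Nd3, Gm28438, differed at 1 of 345 bases (T3C, the base of mt-Nd3 first, counted from 1 at the start of the gene). The first 60 bases of mt-Co3 and mt-Nd3 and of their copies are shown as these are the genes discussed most below, with the base that differs in capitals.
mt-Co3: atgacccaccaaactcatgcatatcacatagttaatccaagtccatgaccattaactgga
Gm28437: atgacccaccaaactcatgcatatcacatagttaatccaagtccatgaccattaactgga
mt-Nd3: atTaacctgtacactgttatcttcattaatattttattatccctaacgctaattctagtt
Gm28438: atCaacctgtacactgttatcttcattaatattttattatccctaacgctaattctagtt

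Total counts lay between 14935114 and 16794810 per library. Counts were scaled to counts per 1000000 (CPM) with TMM factors. Gsdmd had 63.4 to 95.4 CPM in WT and 14.4 to 18.2 CPM in Gsdmd-/- libraries, without overlap, so the labels held but reads of the gene remained. The macrophage markers Lyz2, Csf1r, Cd68, Itgam, Adgre1 and Mertk had over 100 CPM in every library and Cd14 and Fcgr1 less. Of these 8 markers 3 were above 0 and 5 below 0 in the log2 fold change of Gsdmd-/- over WT, and 1, Adgre1, was lower without overlap (-0.24, unadjusted p = 0.0182 and adjusted p = 0.310 in edgeR). Of all genes tested, 4.11% were lower without overlap and 7.3% were lower at an unadjusted p under 0.05 in edgeR. Mertk was farthest below 0, at -0.48, with its highest values in WT 2 and WT 3. The summed markers of neutrophils stayed between 4.44 and 6.90 CPM, those of erythroid, B, T and NK cells below 1 CPM. WT 2 and WT 3 stood apart from the other libraries, with the Fc receptor gene Fcgr1 at 7.08 and 6.65 CPM against 17.8 to 40.7 CPM elsewhere, and summed endothelial markers at 29.5 and 27.8 CPM against 48.5 to 80.8 CPM. The 2 tested endothelial markers went opposite ways between the genotypes, with log2 fold changes of 0.62 and -0.51. The lower of them had an unadjusted p under 0.05 in edgeR, beside 7.3% of all genes lower at that p. The 8 macrophage markers summed to 15320 to 23433 CPM in WT and 19383 to 23373 CPM in Gsdmd-/- libraries, lowest in WT 2 and WT 3. In bulk RNA, fewer cells of a type and less RNA per cell cannot be told apart.

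No nuclear OXPHOS gene was called different between Gsdmd-/- and WT BMDMs. Of the 98 genes, 90 had enough counts to be tested, and 0 of them had an adjusted p under 0.05 in the quasi-likelihood test of edgeR, where 0.139% of the 12911 genes tested were higher and 0.209% lower, and 0 in DESeq2 or in limma voom. None of the 90 had an unadjusted p under 0.05 in edgeR either, whereas 4.74% of all genes were higher and 7.3% lower at that p. None had a fold change beyond 0.5 on the log2 scale with such a p (1.54% of all genes higher and 3.28% lower), and none was without overlap between the genotypes (3.48% higher and 4.11% lower). The log2 fold changes of Gsdmd-/- over WT were small, and 68 were above 0 and 22 below 0, with a median of 0.08, beside 48.5% above 0 and a median of -0.0069 over all genes tested. Among the 75 tested structural subunits, the largest absolute log2 fold change was 0.27, and standard errors lay between 0.0717 and 0.210 with a median of 0.141.

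The split between genes above and below 0 moved with single libraries, in either direction. Without Gsdmd-/- 3, 50 of 90 nuclear genes were above 0, and without WT 2, 52 of 91. Without WT 4, 83 of 91 nuclear genes were above 0 and 15 had an unadjusted p under 0.05, all of them above 0, where 9.38% of all genes were higher at that p. The smallest adjusted p among these 15, of Atp5mpl, was 0.102 in edgeR. Without WT 2 and WT 3, 42 of 91 genes were above 0, and the median was -0.0066.

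**Figure D1:**
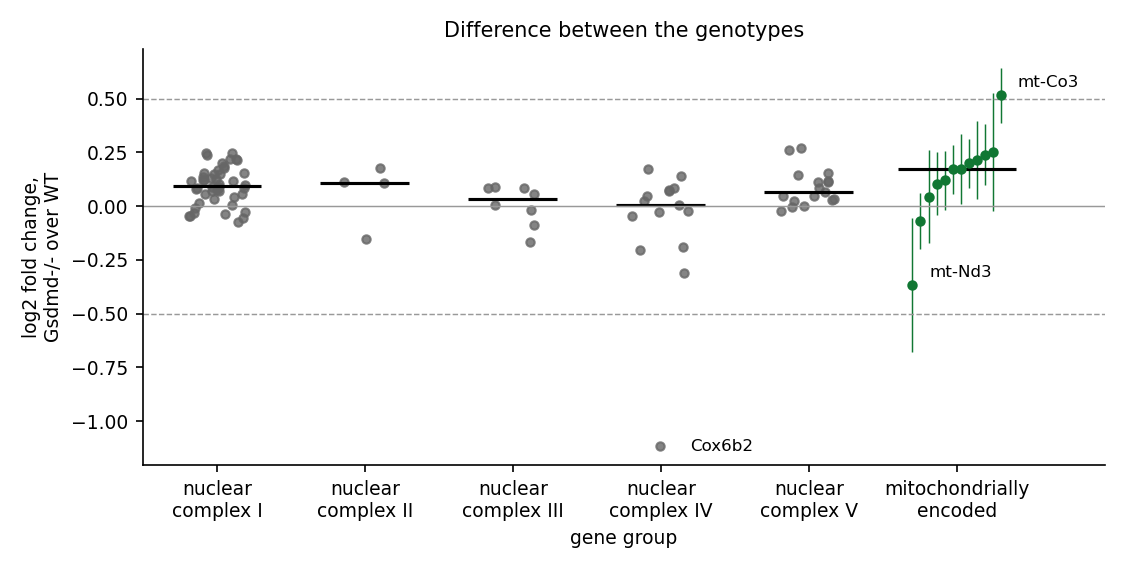
Log2 fold change of Gsdmd-/- over WT (vertical axis) for each tested OXPHOS gene, by complex for the 90 nuclear genes (grey) and for the 12 mitochondrially encoded genes (green, with standard error). Black lines are medians and dashed lines mark 0.5 in either direction. Nuclear structural subunits stay within 0.27 of 0, Cox6b2 with few counts lies at -1.12, and mt-Co3 is the one gene above 0.5.

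Complex I, the NADH dehydrogenase and the largest group, had 46 tested nuclear genes, 38 above 0 and 8 below 0, with a median log2 fold change of 0.09. Ndufv2, an iron-sulfur subunit of the NADH-oxidizing module, had 75.7 ± 12.7 CPM in WT and 87.9 ± 9.81 CPM in Gsdmd-/- libraries (SD, n = 4 each), and a log2 fold change of 0.22 (SE 0.126, adjusted p = 0.548 in edgeR). The accessory subunit Ndufa1 had a log2 fold change of 0.25 and the iron-sulfur subunit Ndufs8 one of 0.20, and both overlapped between the genotypes. Without WT 4, Ndufv2 was at 0.34 and Ndufs8 at 0.36, without WT 2 Ndufs8 was at 0.10, and without Gsdmd-/- 1 Ndufa1 was at 0.13 and without Gsdmd-/- 3 Ndufv2 at 0.14. Of the 8 Ndufaf assembly factors, 7 were above 0 and 1 below 0, with a median of 0.09.

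Complex II, the succinate dehydrogenase shared with the citric acid cycle, is encoded by 4 nuclear genes only. Sdha, the flavoprotein that oxidizes succinate, had 239, 313, 334 and 264 CPM in WT 1 to 4 and 252, 248, 273 and 261 CPM in Gsdmd-/- 1 to 4. WT 2 and WT 3 were the highest, and the other WT libraries lay in the range of the Gsdmd-/- libraries or close to it. The log2 fold change of Sdha was -0.15 (SE 0.110, adjusted p = 0.625 in edgeR), and 0.04 without WT 2 and WT 3. Sdhb, the iron-sulfur subunit, and the membrane anchors Sdhc and Sdhd had log2 fold changes of 0.18, 0.11 and 0.11.

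Complex III, which passes electrons from quinol to cytochrome c, had 8 tested nuclear genes, 5 above 0 and 3 below 0, with a median of 0.03. The core protein Uqcrc1 had 189 ± 15.6 CPM in WT and 187 ± 18.03 CPM in Gsdmd-/- libraries. Uqcr11, a small subunit, had 70.1 ± 15.3 and 62.4 ± 14.6 CPM, a log2 fold change of -0.17 (SE 0.192, adjusted p = 0.777 in edgeR), which ran from -0.29 to -0.06 when each library was left out. For the hinge protein gene Uqcrh the log2 fold change was -0.09.

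Complex V had 17 tested nuclear genes, 14 above 0 and 3 below 0, with a median of 0.06. Atp5b, the catalytic beta subunit, was the nuclear OXPHOS gene with the most counts, with 996 ± 110 CPM in the WT and 981 ± 59.4 CPM in the Gsdmd-/- libraries. Atp5mpl, a small membrane subunit, had 53.1, 43.6, 53.3 and 70.4 CPM in the WT libraries and 68.3, 61.0, 76.1 and 60.8 CPM in the Gsdmd-/- libraries. WT 4 lay among the Gsdmd-/- libraries and the other 3 WT libraries lay below all of them. Its log2 fold change of 0.27 was the highest above 0 among the nuclear genes (SE 0.142, adjusted p = 0.495 in edgeR). It was 0.42 without WT 4, 0.17 without WT 2, and 0.11 without WT 2 and WT 3. Atp5l, another membrane subunit, had 71.1 ± 8.86 and 85.3 ± 15.8 CPM, a log2 fold change of 0.26 with the same adjusted p, and of 0.13 without Gsdmd-/- 3. Atp5j, the coupling factor that joins the stalk to the membrane part, had one of 0.16, and 20.2% of the 50-base windows of its transcript also occur in the neighbouring gene Gabpa, whose reads could not be told apart there without strand information.

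Complex IV, cytochrome c oxidase, had 15 tested nuclear genes, 8 above 0 and 7 below 0, with a median of 0.00. It holds most of the subunits that exist as tissue isoforms, and BMDMs expressed the ubiquitous member of each pair. Per kilobase of exon, Cox4i1 had 252 CPM and its lung isoform Cox4i2 0.337 CPM, and Cox6a1 had 318 CPM and its heart and muscle isoform Cox6a2 2.73 CPM. Likewise, Cox6b1 had 237 CPM per kilobase and the testis isoform Cox6b2 0.750 CPM, and Cox7a2 had 86.2 CPM per kilobase and the muscle isoform Cox7a1 1.87 CPM. By exon length, Cox8a had the highest value of the nuclear OXPHOS genes, at 373 CPM per kilobase, and Atp5b had 233 CPM per kilobase. The order of Cox8a and Atp5b depends on the length used. The exon length of Atp5b is 4237 bases, whereas its transcript that was searched for shared windows has 1916 bases. For Cox8a these lengths are 619 and 550 bases. The Cox8a isoform Cox8b had 2 counts in all 8 libraries together and Cox8c had 0. There were also 0 counts for Cox7b2, the relative of Cox7b, and for Ndufa4l2, the relative of the complex IV subunit Ndufa4, where a count of 0 allows up to 3 counts, or 0.177 to 0.199 CPM, per library.

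None of the complex IV isoforms was called different between the genotypes. Cox6b2 had 0.182, 1.53, 1.77 and 1.09 CPM in the WT libraries and 0.887, 0.473, 0.317 and 0.398 CPM in the Gsdmd-/- libraries, from 75 and 34 counts in all. WT 1 was the lowest of the 8 libraries and the other WT libraries were above all Gsdmd-/- libraries. The log2 fold change was -1.12 (SE 0.574, adjusted p = 0.491 in edgeR, the smallest of the nuclear genes), and over all alternatives it lay between -1.51 and -0.28. It was -1.51 without Gsdmd-/- 1, -1.47 without WT 1 (adjusted p = 0.162 in edgeR) and -0.28 without WT 2 and WT 3 (adjusted p = 0.922). Of the tested muscle isoforms, Cox7a1 had a log2 fold change of -0.31 and Cox6a2 one of -0.20, with 58 to 131 counts per genotype. With each library left out, Cox7a1 ran from -0.48 to -0.14. Among the abundant subunits, Cox4i1 was at -0.03, Cox6a1 at 0.07, Cox6b1 at 0.09, Cox7a2 at 0.17 (0.31 without WT 4 and 0.08 without WT 2), Cox7b at 0.02, Cox8a at 0.00 and Ndufa4 at -0.02. Cox7a2l, a factor associated with complex IV, had 147 ± 32.1 and 129 ± 19.5 CPM, a log2 fold change of -0.19 (SE 0.161, adjusted p = 0.692 in edgeR), and 17.7% of the windows of its transcript also occur in the pseudogene Gm6969.

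The 8 untested nuclear genes were Cox4i2, Cox7b2, Cox8b, Cox8c and Ndufa4l2, the extra copies Ndufa11b and Cox6c2, and an Atp5o gene with the identifier ENSMUSG00000116933 that had 0 counts. None reached more than 1.01 CPM in any library. Extra copies that were tested, Ndufb4c and Ndufs6b, had 41 to 45 counts per genotype and share 100% and 25.4% of their windows with Ndufb4 and Ndufs6, so their counts are uncertain.

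Nuclear OXPHOS genes varied together between libraries, within each genotype. Of the 90 tested genes, 37 had their highest CPM in WT 4 and 37 in Gsdmd-/- 3, and 45 had their lowest in WT 2 and 21 in WT 1. Summed over the 98 genes, they took 0.791%, 0.774%, 0.880% and 0.980% of all counts in WT 1 to 4 and 0.930%, 0.805%, 0.981% and 0.821% in Gsdmd-/- 1 to 4. The genotypes overlapped fully, at 0.856% ± 0.0950 and 0.884% ± 0.0851 (SD, n = 4 each). WT 4 or Gsdmd-/- 3 was also the highest library in the sum of each of the 5 complexes.

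**Figure D2:**
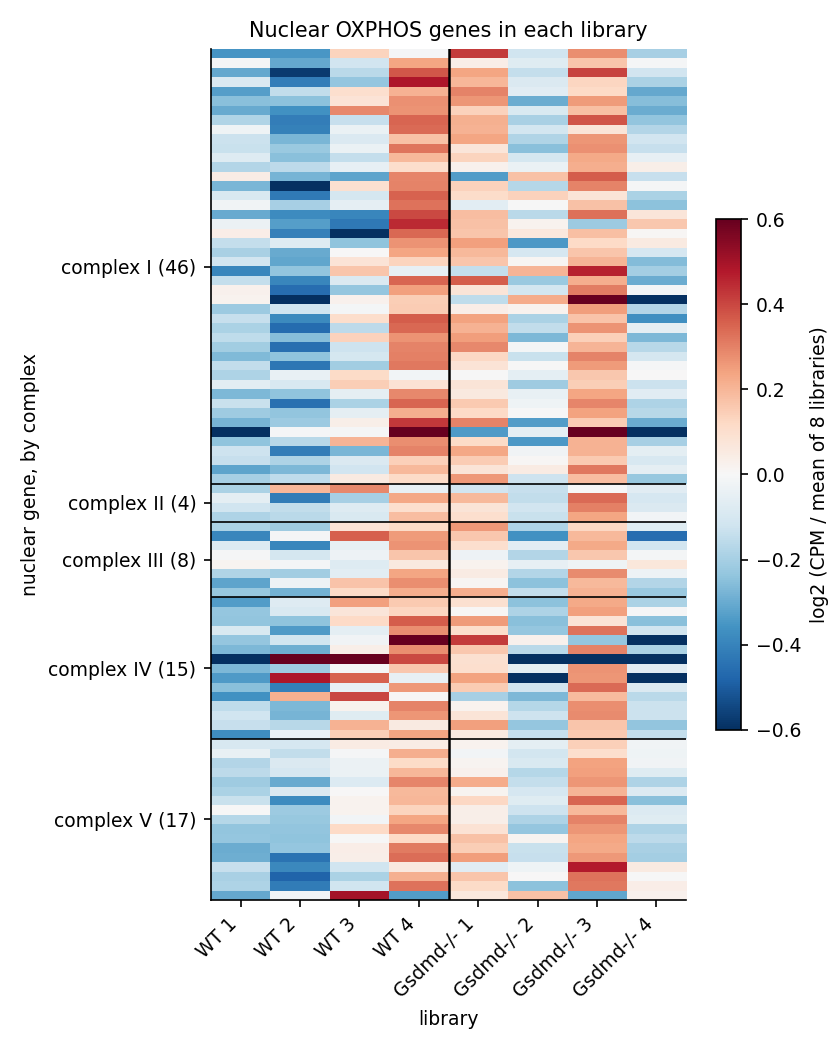
Log2 ratio of CPM to the mean of the 8 libraries (colour, clipped at 0.6) for the 90 tested nuclear OXPHOS genes (rows, grouped by complex) in each library (columns, WT left of the line). WT 4 and Gsdmd-/- 3 are the reddest columns, and WT 1 and WT 2 the bluest.

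Other short transcripts followed the same pattern. The median exon length of the tested nuclear OXPHOS genes was 1631 bases, beside 4189 bases for all genes, and 65 of the 90 fell in the bin of the shortest genes when all tested genes were split by exon length into 4 bins. In the 3187 other genes of that bin, the median log2 ratio to the mean of each gene was -0.11, -0.17, -0.04 and 0.16 in WT 1 to 4 and 0.05, -0.08, 0.13 and -0.07 in Gsdmd-/- 1 to 4. WT 4 and Gsdmd-/- 3 were again the highest and WT 1 and WT 2 the lowest. In the bin of the longest genes, WT 4 and Gsdmd-/- 3 were the lowest, at -0.14 and -0.16. The genes of cytosolic ribosomal proteins took 2.42%, 2.11%, 2.45% and 3.16% of counts in WT 1 to 4 and 2.69%, 2.27%, 2.93% and 2.34% in Gsdmd-/- 1 to 4. The part of transcript length in the differences between libraries was not tested.

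**Figure D3:**
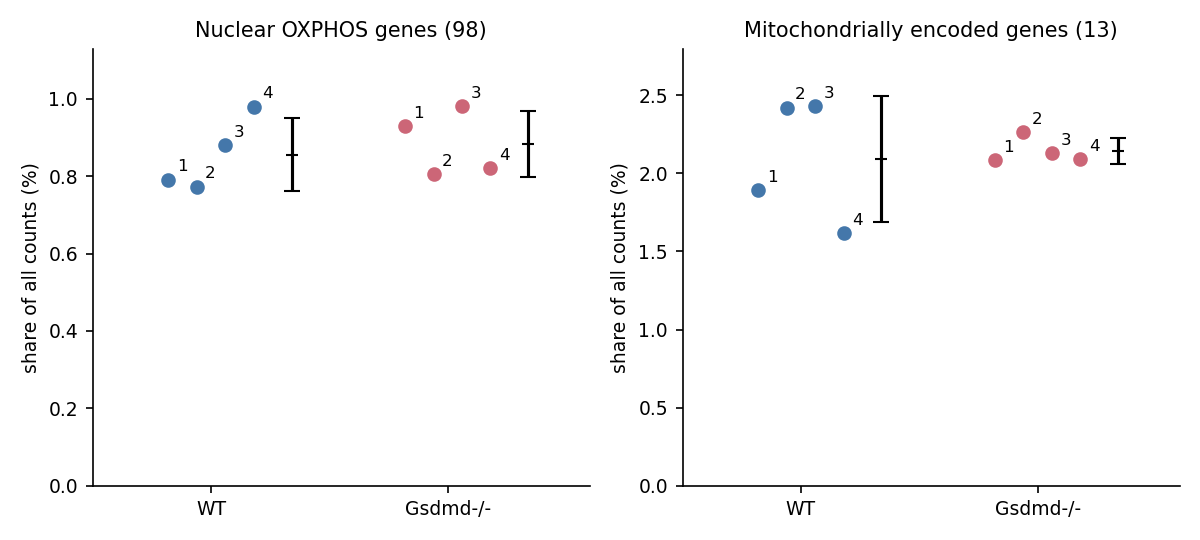
Share of all counts (percent, vertical axis) on the 98 nuclear (left) and 13 mitochondrially encoded (right) OXPHOS genes, with 1 numbered point per library and the mean and SD beside each genotype. The nuclear shares of both genotypes span 0.774% to 0.981%, and the mitochondrial shares spread more in WT (SD 0.403) than in Gsdmd-/- libraries (SD 0.0831).

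Mitochondrially encoded genes took 1.89%, 2.42%, 2.43% and 1.62% of counts in WT 1 to 4 and 2.08%, 2.26%, 2.13% and 2.09% in Gsdmd-/- 1 to 4. WT 2 and WT 3 were above and WT 1 and WT 4 below all Gsdmd-/- libraries, so that the means of 2.09% ± 0.403 and 2.14% ± 0.0831 (SD, n = 4 each) differed by less than the spread. The counts of the mitochondrial genes were 1.65 to 3.13 times those of the nuclear genes. That ratio was lowest in WT 4 and highest in WT 2, which within WT were the libraries with the highest and the lowest share of nuclear OXPHOS counts. The mitochondrial ribosomal RNAs mt-Rnr1 and mt-Rnr2, at 0.0919% and 0.0972% of counts in WT 2 and WT 3 and 0.0489% to 0.0822% elsewhere, were likewise highest in WT 2 and WT 3. The sum of the 6 genes listed as signs of RNA quality and preparation was also highest there, at 2382 and 2312 CPM in WT 2 and WT 3. It was 1358 and 1307 CPM in WT 1 and WT 4 and 1570 to 2131 CPM in the Gsdmd-/- libraries. Beside Malat1, Neat1 and 2 histone genes, the sum holds both mitochondrial ribosomal RNAs, so it partly repeats the values above. The part of RNA quality in the mitochondrial values was not tested.

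Of the 13 mitochondrial genes, 12 were tested, with 10 above 0 and 2 below 0, a median log2 fold change of 0.17, and 0 at an adjusted p under 0.05 in edgeR. At an unadjusted p under 0.05, 1 gene, mt-Co3, was called higher by edgeR, where 4.74% of all genes were higher at that p. DESeq2 gave mt-Co3 an adjusted p of 0.0208 (0.371% of the genes that DESeq2 tested were higher at an adjusted p under 0.05). Without WT 2 and WT 3, 11 were above 0 with a median of 0.39 and 8 had an unadjusted p under 0.05, all of them above 0, where 6.32% of all genes were higher at that p. Their smallest adjusted p was then 0.0784 in edgeR, for mt-Nd2. The genes share a genome and its transcripts, and are not independent of each other.

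mt-Co3 encodes a core subunit of complex IV (GRCm38, chromosome M, 8607 to 9390, plus strand). It had 44.98, 47.7, 49.8 and 54.6 CPM in the WT libraries and 58.9, 78.7, 83.2 and 60.8 CPM in the Gsdmd-/- libraries. Every Gsdmd-/- library was above every WT library, as for 3.48% of all genes. The log2 fold change was 0.52 (SE 0.126, adjusted p = 0.143 in edgeR). Over all alternatives the adjusted p lay between 0.0208 and 0.390, and leaving out WT 1, WT 2, Gsdmd-/- 2 or Gsdmd-/- 3 brought the log2 fold change below 0.5, down to 0.43.

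Since mt-Co3 and Gm28437 are identical over 783 bases, their reads cannot be assigned by sequence, and the copy took 28.9% to 38.5% of the counts of the pair. Gm28437 had 22.8 to 31.2 CPM in WT and 31.0 to 40.2 CPM in Gsdmd-/- libraries, which overlapped, with a log2 fold change of 0.36 (SE 0.133, adjusted p = 0.326 in edgeR). Summed, the pair had 68.1 to 84.3 CPM in WT and 89.9 to 123.5 CPM in Gsdmd-/- libraries, without overlap.

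**Figure D4:**
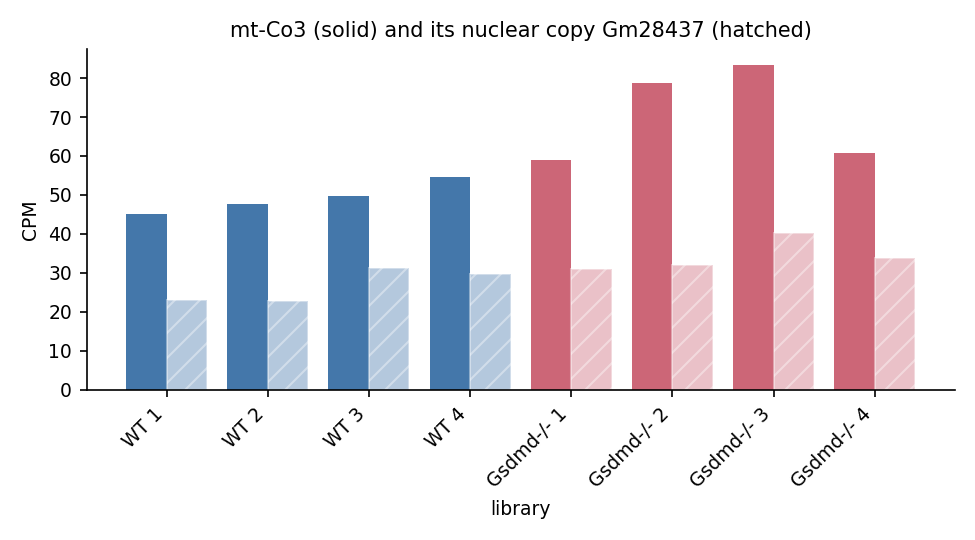
CPM (vertical axis) of mt-Co3 (solid bars) and of its nuclear copy Gm28437 (hatched bars) in each library, WT in blue and Gsdmd-/- in red. The 4 Gsdmd-/- libraries had 58.9 to 83.2 CPM of mt-Co3, all above the WT libraries, while the copy overlapped between the genotypes.

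The other subunits of the mitochondrial genome overlapped between the genotypes. mt-Co1, the catalytic subunit of complex IV, was the most abundant OXPHOS gene, with 10798 ± 1996 CPM in the WT and 10292 ± 330 CPM in the Gsdmd-/- libraries, and a log2 fold change of -0.07 (SE 0.130, adjusted p = 0.873 in edgeR). Without WT 2 and WT 3 it was 0.17. mt-Cytb, the cytochrome b of complex III, had 2805 ± 555 and 3047 ± 148 CPM, a log2 fold change of 0.12. Of the complex I subunits, mt-Nd1 had 1799 ± 261 and 2025 ± 158 CPM (0.17), mt-Nd2 856 ± 132 and 983 ± 47.9 CPM (0.20), and mt-Nd4 1211 ± 272 and 1301 ± 66.9 CPM (0.10), with log2 fold changes in parentheses. Over all alternatives, mt-Nd4 ran from 0.0023 to 0.41, mt-Cytb from 0.022 to 0.38, mt-Nd1 from 0.11 to 0.35 and mt-Nd2 from 0.13 to 0.40. Each was highest without WT 2 and WT 3. mt-Nd5 had 3173 CPM in WT 2 and 1408 CPM in WT 4, which spanned all Gsdmd-/- libraries (2243 to 2886 CPM), and its log2 fold change was 0.04. mt-Nd6, the one gene here on the opposite strand, had 777 ± 126 and 917 ± 144 CPM and a log2 fold change of 0.24, and its 3' end overlaps that of mt-Nd5 by position. mt-Atp6 and mt-Co2, subunits of complexes V and IV, had log2 fold changes of 0.21 and 0.17. mt-Nd4l, a small complex I subunit, had 6.79 ± 2.42 and 8.08 ± 2.23 CPM and a log2 fold change of 0.25.

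Levels among the mitochondrial genes went with how much of their sequence is repeated in the nuclear genome. mt-Co2, mt-Co3, mt-Atp6, mt-Nd4l and mt-Nd3 shared between 97.99% and 100% of their 50-base windows with another annotated transcript, and had 12.1 to 195 CPM per kilobase. mt-Co1, mt-Cytb, mt-Nd1, mt-Nd2, mt-Nd4, mt-Nd5 and mt-Nd6 shared between 0% and 62.2% and had 886 to 6825 CPM per kilobase. The share of counts on the copy on chromosome 1 was 42.6% to 47.9% for mt-Co2, 41.0% to 47.8% for mt-Atp6, 33.1% to 38.7% for mt-Nd4l and 20.5% to 70.9% for mt-Nd3. How reads with several matches were counted is not given in the sources used here, and its part in these levels was not tested. mt-Atp8, which overlaps mt-Atp6, was at 0.717 CPM per kilobase with 19 counts in all, shared no window, and was not tested.

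**Figure D5:**
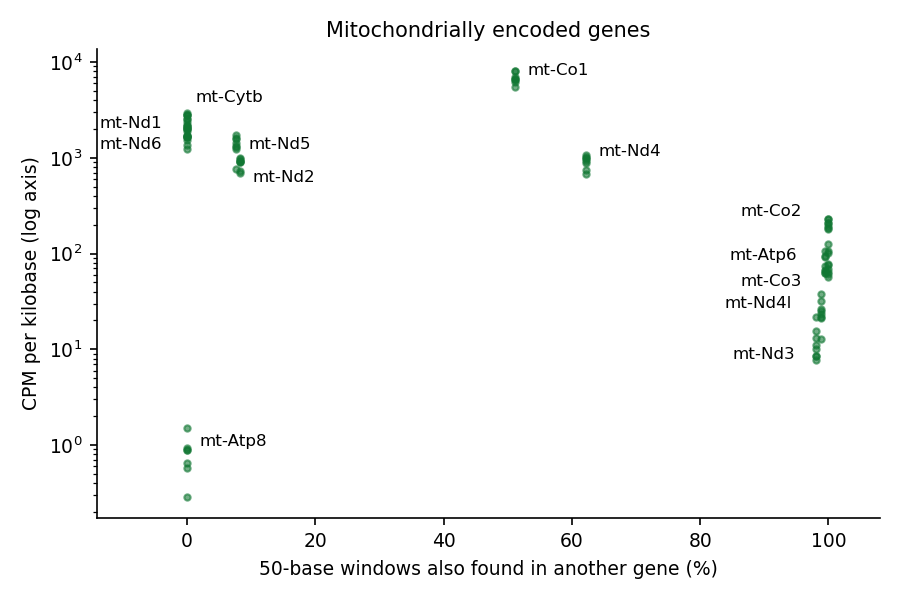
CPM per kilobase of gene in each library (vertical log axis, 1 point per library) against the percent of 50-base windows also found in another annotated transcript (horizontal axis) for the 13 mitochondrial genes. The 5 genes at 97.99% or more lie below the other genes except mt-Atp8, whose WT 1 library with 0 counts is not drawn.

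mt-Nd3, a small complex I subunit, was the mitochondrial gene farthest below 0. It had 2.98, 2.99, 5.43 and 7.54 CPM in the WT libraries and 3.85, 3.54, 4.56 and 2.72 CPM in the Gsdmd-/- libraries, a log2 fold change of -0.37 (SE 0.314, adjusted p = 0.696 in edgeR), and of -0.05 without WT 4. Its copy Gm28438 had 1.40 to 2.68 CPM in WT and 3.18 to 9.35 CPM in Gsdmd-/- libraries without overlap, and a log2 fold change of 1.26 (SE 0.370, adjusted p = 0.227 in edgeR). Gsdmd-/- 1, at 9.35 CPM, was far above the other Gsdmd-/- libraries, at 3.18 to 4.50 CPM, and without it the log2 fold change was 0.79 (adjusted p = 0.523 in edgeR). The sum of both overlapped, at 6.85 ± 2.35 and 8.75 ± 3.24 CPM.

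Genes that assemble, supply or regulate the complexes also gave 0 calls at an adjusted p under 0.05 in edgeR. Of 45 tested assembly factors outside the Ndufaf family, 20 were above 0 and 25 below 0, and 4 had an unadjusted p under 0.05, all below 0, beside 7.3% of all genes lower at that p. Tmem186, a factor for complex I assembly, had 13.1 to 15.01 CPM in WT and 8.58 to 10.1 CPM in Gsdmd-/- libraries without overlap, and a log2 fold change of -0.57 (SE 0.109, adjusted p = 0.0732 in edgeR). The other genes with such a p were Tmem126b and Timmdc1, which act in complex I assembly, with log2 fold changes of -0.41 and -0.29, and Cox17, a copper chaperone of complex IV. Cox17 had 2.49, 6.04, 4.70 and 2.55 CPM in WT 1 to 4 and 2.43, 2.84, 1.90 and 1.46 CPM in Gsdmd-/- 1 to 4, with WT 2 and WT 3 the highest, and a log2 fold change of -0.87. Timmdc1 and Cox17 were chosen after their values were seen. The factors with the smallest p above 0 were Uqcc3 and Nubpl, for complexes III and I, with log2 fold changes of 0.23 and 0.32.

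Of 25 tested electron carriers and inner membrane carriers, 15 were above 0 and 10 below 0. Ucp2, an inner membrane carrier of the uncoupling protein family, had 821, 1115, 1116 and 814 CPM in the WT libraries and 728, 738, 757 and 775 CPM in the Gsdmd-/- libraries. It was without overlap and highest in WT 2 and WT 3, with a log2 fold change of -0.37 (SE 0.122, adjusted p = 0.279 in edgeR). Coq6, a coenzyme Q synthesis enzyme, had 7.61 ± 1.83 CPM in WT and 10.04 ± 0.705 CPM in Gsdmd-/- libraries, and a log2 fold change of 0.40 (SE 0.167, adjusted p = 0.380 in edgeR). These were the 2 genes of the list with an unadjusted p under 0.05, 1 higher and 1 lower, beside 4.74% of all genes higher and 7.3% lower at that p. Coq10b was at 0.21, and Coq8a, with 4.58 and 4.57 CPM in WT 2 and WT 3 and 2.13 to 2.92 CPM in the other libraries, at -0.52.

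Of 18 regulators of mitochondrial biogenesis, 9 were above 0 and 9 below 0, and 2 were higher and 1 lower at an unadjusted p under 0.05, beside 4.74% and 7.3% of all genes. Mterf3 and Tfam, which act on mitochondrial transcription, had log2 fold changes of 0.31 and 0.28, and Polrmt, the mitochondrial RNA polymerase, had one of -0.30, with adjusted p between 0.274 and 0.370 in edgeR, and Esrra, a nuclear receptor, had one of -0.24. Mterf3 and Gabpb1 were higher without overlap (3.48% of all genes) and Yy1 lower without overlap (4.11%), where Gabpb1 and Yy1 were chosen after their values were seen. Of 77 genes of the mitochondrial ribosome, 59 were above 0 and 18 below 0, with a median of 0.09, and of 15 genes of mitochondrial RNA handling, 6 were above 0 and 9 below 0, with a median of -0.02. The genes of both with the smallest p were Mrps5 (0.20) and Fastkd2 (0.19) above 0 and Mrps6 (-0.42) and Mrpl49 (-0.27) below 0, with log2 fold changes in parentheses. Of 18 citric acid cycle genes, 11 were above 0 and 7 below 0, with a median of 0.03, and the genes with the smallest p were Suclg1 (0.25) and Pdhb (0.15) above 0 and Pcx (-0.46) and Cs (-0.11) below 0. Pcx, the pyruvate carboxylase, had 15.2 and 16.1 CPM in WT 2 and WT 3, 6.02 and 7.35 CPM in WT 1 and WT 4 and 7.51 to 8.88 CPM in the Gsdmd-/- libraries. None of the ribosome, RNA handling or citric acid cycle genes had an unadjusted p under 0.05.

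Most of these values came closer to 0 without WT 2 and WT 3. Of the 22 genes of these lists given with a log2 fold change, 18 moved by over 1.5 times or turned, and 1 instead of 9 had an unadjusted p under 0.05, Tmem186 at -0.55. Mterf3 was then at 0.26, Polrmt at -0.22 and Cs at -0.09. Pcx turned to 0.27, and Coq8a was at -0.03, Cox17 at -0.22, Tmem126b at -0.22, Timmdc1 at -0.18, Ucp2 at -0.13 and Esrra at -0.08. Of the genes above 0, Coq6 was at 0.19, Tfam at 0.16, Coq10b at 0.11, Uqcc3 at 0.10 and Nubpl at 0.01. The remaining genes were Mrps5 at 0.08, Fastkd2 at 0.06, Mrps6 at -0.21, Mrpl49 at -0.13, Suclg1 at 0.03 and Pdhb at 0.09. The genes were chosen by their p or values in the fit of all libraries, which by itself favours smaller values in other fits. No other pair of libraries was left out, so these moves cannot be tied to WT 2 and WT 3. Without WT 4, some values grew, such as Nubpl at 0.56 and Coq6 at 0.58. Others shrank, such as Tmem126b at -0.38 and Mrpl49 at -0.25.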

How the data were processed

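Total RNA of BMDMs was sequenced by a company from Illumina TruSeq libraries, a kit that was taken not to mark strand. The authors deposited 1 table of raw read counts per gene for the 8 libraries, and the submitters' processing notes name the build mm10. The aligner, the counting tool and the annotation are not given in the sources used here. Positions, exon lengths and transcripts came from GENCODE M21, in which 54409 of 54532 rows were found, and promoters from RefSeq (GRCm38.p6).

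WT and Gsdmd-/- libraries were compared with edgeR 4.0.16 in R 4.3.3 (TMM, filterByExpr, quasi-likelihood test, two-sided, genotype only) over 12911 genes, with Benjamini-Hochberg adjustment over all of them. CPM use TMM factors, and CPM per kilobase divide by the exon length of the gene. A transcript window counted as shared when its 50 bases occurred exactly, on either strand, in a transcript of another gene. DESeq2 1.42.0, limma 3.58.1 (voom), other scalings and filters, a replicate block and leaving out libraries were alternatives. Scripts were tested on simulated data.

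Genes were named by a rule: every mitochondrial gene, the 6 nuclear genes with the smallest p in each direction, the subunit of each complex with the highest CPM, the isoform sets and, from each other list, the 2 genes with the smallest p in each direction. The members, the lists and the rule were chosen with earlier results of these data known. Total counts of 14935114 to 16794810 limit the precision of genes with few counts, and limits on counts of 0 cover counting error only. Uqcrhl was not analysed here, and 1 gene that the rule names is not reported here.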

Additional observations from a re-analysis of the deposited data

Results flagged for a closer look

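Among the 72 groups of 4 libraries that were examined, 1 held a library far from the rest. mt-Atp6, the complex V subunit of the mitochondrial genome, had 64.1 CPM in WT 3 and 42.5 to 45.6 CPM in the other WT libraries, so that the gap took 0.858 of the range of the group. Chance gives such a gap in about 1 of 20 groups. In the Gsdmd-/- libraries mt-Atp6 had 43.1 to 72.5 CPM.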

How the results depend on the processing

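Over the 17 alternatives, the count of nuclear OXPHOS genes at an adjusted p under 0.05 stayed at 0, and the median log2 fold changes and shares of both sets moved by less than the spread between replicates, except without WT 2 and WT 3, where the mitochondrial median was 0.39 and the difference in the share of counts on mitochondrial genes was 0.387 percentage points. DESeq2 called 1 mitochondrial gene at an adjusted p under 0.05 (mt-Co3, at a log2 fold change of 0.52) where edgeR called 0. With the limit of 0.5 on the log2 fold change and an unadjusted p under 0.05, 1 nuclear gene (Cox6b2, lower) was called with no filter on low counts, where 3.09% of all genes were lower. Leaving out 1 library gave 0 to 1 nuclear genes (Cox6b2, without WT 1 or Gsdmd-/- 1, where 4.48% and 2.67% of all genes were lower) and 0 to 1 mitochondrial genes (0 without WT 1, WT 2, Gsdmd-/- 2 or Gsdmd-/- 3, otherwise mt-Co3, where 1.25% to 2.42% of all genes were higher). Without WT 2 and WT 3 the 1 mitochondrial gene called was mt-Nd4l, not mt-Co3, where 3.05% of all genes were higher. There mt-Co3 was at 0.498, just under the limit of 0.5, with an unadjusted p of 0.0128 in edgeR. The causes were not tested.

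The sign of the log2 fold change turned for some of the named genes, none of them called in edgeR. Cox8a was at -0.0050 in limma voom and -0.0015 with at least 10 counts in every library, and Uqcrc1 at 0.00045 with no filter. Without WT 2 and WT 3, the log2 fold change was 0.054 for Cox4i1, -0.074 for Cox6a1, 0.019 for Cox7a1, 0.068 for Cox7a2l, -0.079 for Cox7b, 0.022 for Ndufa4, -0.0079 for Ndufs8, 0.035 for Sdha and 0.17 for mt-Co1. When each library was left out in turn, it ran from -0.075 to 0.058 for Atp5b, -0.13 to 0.058 for Cox4i1, -0.039 to 0.20 for Cox6a1, -0.43 to 0.022 for Cox6a2, -0.0090 to 0.21 for Cox6b1, -0.077 to 0.14 for Cox7b, -0.085 to 0.082 for Cox8a, -0.13 to 0.062 for Ndufa4, -0.079 to 0.041 for Uqcrc1, -0.19 to 0.0031 for Uqcrh, -0.16 to 0.013 for mt-Co1 and -0.15 to 0.18 for mt-Nd5.

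The libraries of the genotypes share replicate numbers, whose deviations correlated at 0.0268, 0.182, 0.0412 and -0.201, so the numbers were not taken to pair them. With the replicate number as a block, 0 nuclear and 0 mitochondrial genes had an adjusted p under 0.05, Cox8a was at -0.0050, and 25 genes of all tested were called beside 45 without the block. Over all genes, the count of 45 became 256 in DESeq2, 109 with no filter, 161 without WT 2 and WT 3, and 14 to 84 with 1 library left out. Depth limits Cox6b2 and Cox7a1, with 34 to 75 counts per genotype.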

Other observations

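Among the 9 genes left out for -ps in the symbol, Ndufb1-ps had 43.3 to 61.3 CPM in WT and 44.1 to 56.3 CPM in Gsdmd-/- libraries (log2 fold change 0.01). GENCODE M21 annotates it as a long non-coding RNA of a bidirectional promoter on chromosome 12, and its level lay in the range of nuclear OXPHOS subunits. WT 4 and Gsdmd-/- 3 were its highest libraries. Ndufab1-ps had 3.49 to 6.26 CPM, and the other 7 had at most 1.00 CPM in any library, 4 of them with 0 counts in all libraries.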
